A study of Mus musculus with 8 samples.

Results

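The nuclear genes of oxidative phosphorylation were taken as every gene of the count table whose symbol begins with Ndufa, Ndufb, Ndufc, Ndufs or Ndufv and a number, with Uqcr, with Cox4 to Cox8 or with Atp5, plus Sdha, Sdhb, Sdhc, Sdhd, Cycs and Cyc1. This symbol rule found 87 genes among the 23284 of the table. Of these, 84 encode subunits of the respiratory chain, of ATP synthase or cytochrome c: 35 were assigned to complex I, 4 to complex II, 9 to complex III, 20 to complex IV and 15 to complex V, and 1 is cytochrome c. The other 3 carry such a symbol and encode other proteins: Cox4nb (a subunit of the endoplasmic reticulum membrane complex), Atp5s and Atp5sl. In all, 82 of the 87 passed the filter on low counts (at least 10 counts, scaled to library size, in at least 2 libraries) and were tested.

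The study profiled the choroid plexus, the secretory tissue of the brain ventricles that makes cerebrospinal fluid, from CD1 mouse embryos at embryonic stage E18.5. The telencephalic choroid plexus of the lateral ventricles was compared with the hindbrain choroid plexus of the fourth ventricle. This was done in whole tissue and in epithelial cells purified by fluorescence-activated cell sorting for Ttr::RFP, a red fluorescent reporter under the name of the epithelial gene Ttr. The 4 groups of 2 libraries each are telencephalic whole tissue, hindbrain whole tissue, telencephalic sorted cells and hindbrain sorted cells. No group was treated. Per the submitters' design text, the telencephalic and hindbrain samples of 1 number come from the same brain. The whole tissue and the sorted cells carry different sample names, so 4 brains are distinguished. Whether embryos were pooled is not stated, and the strain of the sorted cells is labelled ICR (CD1).

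Oxidative phosphorylation passes electrons from NADH (complex I) and succinate (complex II) through complex III and cytochrome c to oxygen at complex IV. Complexes I, III and IV pump protons across the inner mitochondrial membrane, and ATP synthase (complex V) uses their return to make ATP. A few catalytic core subunits of complexes I, III and IV and of ATP synthase are encoded by the mitochondrial genome and were not analysed here. Nuclear genes encode the rest, including the many small accessory subunits that are needed for assembly and stability. The choroid plexus epithelium is rich in mitochondria, which supply the ATP for its ion pumping.

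The libraries held 8849053 to 31613434 counts, and the 87 genes took 0.777% to 1.05% of them. Ribosomal precursor RNA (Rn45s) took 4.07% to 4.40% of counts in the 4 whole-tissue libraries, 13.9% and 11.6% in telencephalic sorted cells, and 6.49% and 11.3% in hindbrain sorted cells. Levels are given as CPM, counts scaled to a common library size with TMM factors. Summed over 12 markers of the choroid epithelium, Ttr among them, the level was 196695 and 181387 CPM in telencephalic and 150480.0 and 152910.0 in hindbrain whole tissue, against 293828 and 270575 in telencephalic and 173342 and 224628 in hindbrain sorted cells, with none of them at 0 in any group. Ttr made most of each sum. The other 11 markers summed to 9736 and 9364 in telencephalic and 11180 and 12105 in hindbrain whole tissue, against 12113 and 13630 in the telencephalic and 14412 and 14029 in the hindbrain sorted libraries, so without Ttr the hindbrain sums were the higher ones. The hindbrain sorted cells carried more marker RNA of macrophages, mural cells, mesenchyme and endothelium than the telencephalic sorted cells. The sum over 10 macrophage markers was 207 and 177 CPM against 35.8 and 58.0, and over 9 mural cell markers 295 and 265 against 76.2 and 68.5. The sums were similarly ordered for 10 mesenchymal markers, at 2054 and 1550.2 against 897 and 939, and for 10 endothelial markers, at 202 and 191 against 129.5 and 135, with none of these markers at 0 in either group. In tissue samples, fewer cells of a type and less RNA per cell cannot be told apart.

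Per length, Atp5b stood highest. This catalytic beta subunit of the F1 head of ATP synthase had a mean level of 978 CPM per kilobase of transcript over the 8 libraries, against 366 for Cox8a and 340.0 for Cox7c, small accessory subunits of complex IV. Among the other ATP synthase genes, Atp5l (subunit g) and Atp5h (subunit d) followed with 290.0 and 272 CPM per kilobase. At the other end, the tested tissue isoforms Cox4i2, Cox7a1 and the paralogue Ndufa4l2 stood at 2.63, 3.82 and 4.33 CPM per kilobase. The 5 untested genes were Ndufs5, a complex I accessory subunit, and Cox8c, both listed at 0 in every library, and Cox6a2, Cox7b2 and Cox8b, with 6, 2 and 8 counts in all. The 6 counts of Cox6a2 all lay in 1 hindbrain sorted library.

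The promoters of 70 of the 87 genes were found in a RefSeq table of sequences from 250 bases before to 50 after the start (GRCm38.p6), Atp5f1, Atp5s and Atp5sl by their current symbols. Atp5a1, Cox4i1, Cox4i2, Cox4nb, Cox6a2, Cox6c, Cox8c, Cyc1, Ndufa2, Ndufa4l2, Ndufb9, Ndufs1, Sdhc, Uqcrb, Uqcrc2 and Uqcrq were among those not matched. The 70 were searched on both strands for letters that known regulators of mitochondrial genes bind. CGCNTGCG, a core of the nuclear respiratory factor NRF1, occurred in 38.6% of the 70 genes and in 9.22% of all 27025 genes of the table. Its stricter palindromic form CGCATGCG, which CGCNTGCG includes, occurred in 14.3% and 2.07%. CCGGAAG, a core of ETS factors such as GABPA, occurred in 22.9% and 9.93%, AAGATGGC (YY1) in 15.7% and 3.19%, and TCAAGGTCA (ESRRA) in 2.86% and 0.466%. The 10 matched genes called lower in hindbrain sorted cells held CGCNTGCG in 4, CGCATGCG in 2, CCGGAAG in 2, AAGATGGC in 2 and TCAAGGTCA in 0 cases. Ndufa1, called lower there, and Atp5g1, called higher in telencephalic sorted cells than in whole tissue, held none of the searched letters. A match is a description of letters, not a binding site.

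Windows before the start of 4 called genes are shown, all picked from the 10 of 70 genes that hold CGCATGCG. They do not stand for the other called genes. Uqcr11 and Ndufa11 were called lower in hindbrain sorted cells. All 4, with Cycs and Atp5j, were called higher in telencephalic sorted cells than in whole tissue. Capitals mark the searched letters, all read on the gene's own strand. Uqcr11 (chr10:80406822-80406921, minus strand) holds the ETS letters 66 bases before the start. The NRF1 palindrome of Uqcr11 begins 5 bases before the start and runs past it, so the shown window holds only its first 5 letters, in lower case. Ndufa11 (chr17:56717682-56717761, plus strand) and Cycs (chr6:50566570-50566669, minus strand) hold that palindrome 59 and 61 bases before the start. Atp5j (chr16:84835024-84835123, minus strand), between Atp5j and the oppositely transcribed Gabpa, holds NRF1, YY1 and ETS letters, in that order, 147, 88 and 61 bases before the downstream of its 2 listed starts. The sequences are RefSeq's, 5′ to 3′.
Uqcr11: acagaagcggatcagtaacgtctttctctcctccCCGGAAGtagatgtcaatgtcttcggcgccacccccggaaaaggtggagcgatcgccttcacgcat
Ndufa11: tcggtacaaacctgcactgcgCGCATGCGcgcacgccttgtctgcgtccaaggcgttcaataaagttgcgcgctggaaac
Cycs: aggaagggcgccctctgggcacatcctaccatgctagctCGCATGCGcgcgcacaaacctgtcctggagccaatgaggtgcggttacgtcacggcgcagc
Atp5j: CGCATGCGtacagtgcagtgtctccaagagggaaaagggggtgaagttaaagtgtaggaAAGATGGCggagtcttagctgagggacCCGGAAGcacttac

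**Figure D1:**
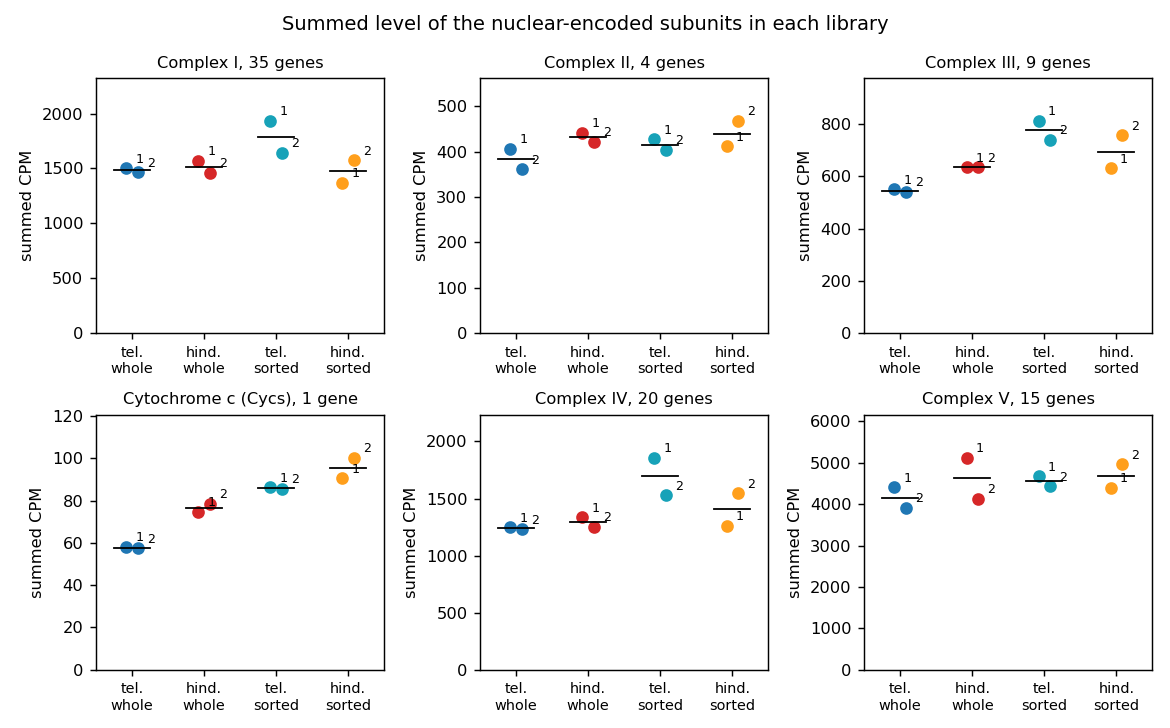
Summed level (CPM after TMM scaling, axes from 0) of the genes of each complex in each of the 8 libraries, with replicate numbers beside the points and the group mean as a line. Complexes I, III and IV stand highest in the first telencephalic sorted library, complex V varies most between whole-tissue replicates, and Cycs is lowest in the 2 telencephalic whole-tissue libraries.

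Summed by complex, the level of complex I was 1504 and 1467 CPM in telencephalic and 1570.0 and 1463 in hindbrain whole tissue, against 1934 and 1645 in telencephalic and 1370.2 and 1576 in hindbrain sorted cells. Both telencephalic sorted libraries lay above the other 6, and the 2 sorted groups did not overlap. Complex IV gave 1250.1 and 1229.7 CPM in telencephalic and 1338 and 1252 in hindbrain whole tissue, against 1859 and 1529.9 in telencephalic and 1263 and 1549 in hindbrain sorted cells. Here the second telencephalic sorted library lay just below the second hindbrain sorted library, so the sorted groups overlapped. Complex III gave 551 and 541 CPM in telencephalic and 635 and 636 in hindbrain whole tissue, against 813 and 741 in telencephalic and 631 and 757 in hindbrain sorted cells, with all 4 sorted libraries above the 2 telencephalic whole-tissue libraries. Complex II, the succinate dehydrogenase, gave 406 and 361 CPM in telencephalic and 442 and 422 in hindbrain whole tissue, against 427 and 404 in telencephalic and 412 and 468 in hindbrain sorted cells and overlapped between the sorted groups. Complex V, of which Atp5b made the largest share, gave 4406 and 3909.8 CPM in telencephalic and 5126 and 4135 in hindbrain whole tissue, against 4672 and 4435 in telencephalic and 4393 and 4960.3 in hindbrain sorted cells, and its 2 hindbrain whole-tissue libraries differed from each other by more than the group means did.

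The comparison of hindbrain with telencephalic whole tissue asks which genes differ by region in the intact plexus. Of the 82 genes, 0 were called by edgeR's quasi-likelihood test at an adjusted p below 0.05, the call used throughout, while 5.79% of the 15698 genes tested were (3.34% higher and 2.45% lower). At an unadjusted p below 0.05 there were 6, against 16.5% of all genes, and DESeq2 called 2. The 6 were Uqcrc1, Cycs, Cyc1, Sdhb, Ndufa10 and Ndufb9, all at positive differences. The median log2 fold change of the 82 genes was 0.07, against 0.01 over all genes tested, and 54 of 82 were positive.

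Cycs, cytochrome c, the mobile carrier between complexes III and IV, stood at 58.1 and 57.5 CPM in telencephalic and 74.8 and 78.5 in hindbrain whole tissue. The sorted cells held 86.5 and 85.7 CPM in the telencephalic and 90.5 and 100.4 in the hindbrain plexus. Both hindbrain whole-tissue libraries lay above both telencephalic ones, and the whole-tissue difference was 0.41 ± 0.11 (SE), adjusted p = 0.0566 in the edgeR test. Uqcrc1, a core protein of complex III, stood at 55.5 and 46.3 CPM in telencephalic and 71.3 and 65.6 in hindbrain whole tissue. Sorted epithelial cells had 70.6 and 73.0 CPM in the telencephalic and 76.9 and 78.9 in the hindbrain plexus. Its whole-tissue groups did not overlap either, with a log2 fold change of 0.42 ± 0.12 (SE), adjusted p = 0.0731. With the brain as a replicate block, the edgeR test called these 2 genes higher in hindbrain whole tissue (adjusted p = 0.0485 for Cycs and 0.0376 for Uqcrc1); DESeq2 called the same 2. Cyc1, the cytochrome c1 of complex III, showed 0.37 ± 0.13 (SE), adjusted p = 0.137, and Ndufa10, an accessory subunit of complex I, 0.38 ± 0.12 (SE), adjusted p = 0.0854. By complex, the median differences in whole tissue were 0.03 for complex I, 0.21 for complex II, 0.20 for complex III, 0.06 for complex IV and 0.08 for complex V.

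**Figure D2:**
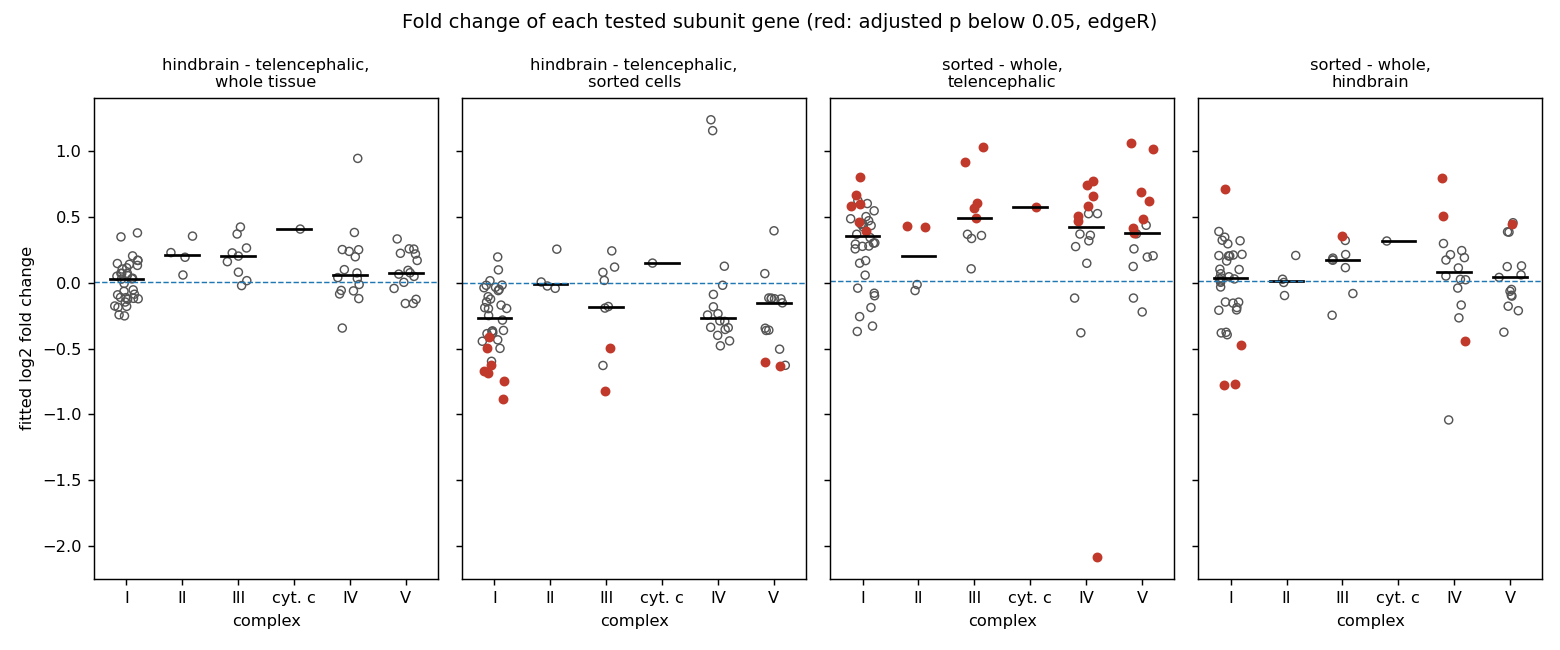
Fitted log2 fold change of each of the 79 tested subunit genes by complex in 4 comparisons; red points have an adjusted p below 0.05 (edgeR), black lines are medians by complex and the dashed line is the median over all genes tested. Called genes lie below 0 between the sorted groups and nearly all above 0 for sorted against whole telencephalic plexus.

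In the sorted epithelial cells, 11 of the 82 genes fell in the hindbrain relative to the telencephalic plexus and 0 rose. The 11 are 13.4% of those tested, while 6.12% of all genes were called lower, 9.06% higher and 15.2% in either direction. The median log2 fold change was -0.20 against 0.00 over all genes tested, and 66 of 82 genes were negative. At an unadjusted p below 0.05 there were 31 genes, against 28.3% of all genes. The 11 were 7 accessory subunits of complex I (Ndufa1, Ndufa2, Ndufa3, Ndufa7, Ndufa11, Ndufa13 and Ndufv3), 2 small subunits of complex III (Uqcr10 and Uqcr11) and 2 of ATP synthase (Atp5e and Atp5j2). Of the 7 nuclear-encoded core subunits of complex I, 0 were called in the edgeR test, at either an adjusted or unadjusted p below 0.05. DESeq2 called 0 of them as well. The median of these core subunits was -0.11, against -0.37 for the 27 tested accessory subunits. Subunit class was not separated from transcript length, which is described below. Complexes II and IV had 0 called genes. At an unadjusted p below 0.05 complex II had 1 of 4, Sdha, which was higher, and complex IV 7 of 16, of which 5 were lower and 2, Cox4i2 and Ndufa4l2, higher.

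Ndufa1, a small X-linked membrane subunit needed to assemble complex I, stood at 45.0 and 42.4 CPM in telencephalic and 38.1 and 39.1 in hindbrain whole tissue. In the sorted samples it stood at 75.0 and 63.5 CPM in the telencephalic and 38.8 and 44.0 in the hindbrain plexus. Both telencephalic sorted libraries lay above the other 6, and the hindbrain sorted cells were level with whole tissue. The log2 fold change between the sorted groups was -0.74 ± 0.13 (SE), adjusted p = 0.00202. It was called under all 16 alternative settings, with adjusted p from 1.99e-05 to 0.0412. Ndufa2, an accessory subunit of the peripheral arm, stood at 25.4 and 23.6 CPM in telencephalic and 23.1 and 18.0 in hindbrain whole tissue. Levels after sorting were 43.2 and 30.9 CPM in the telencephalic and 17.1 and 23.1 in the hindbrain plexus. The sorted groups did not overlap, and the difference was -0.89 ± 0.20 (SE), adjusted p = 0.01. Ndufa7 stood at 35.3 and 35.1 CPM in telencephalic and 32.1 and 30.2 in hindbrain whole tissue, against 48.6 and 37.9 in telencephalic and 25.5 and 30.8 in hindbrain sorted cells. The difference between the sorted groups was -0.62 ± 0.15 (SE), adjusted p = 0.0163. The other 4 accessory subunits of complex I fell by 0.69 (Ndufa11), 0.67 (Ndufa3), 0.49 (Ndufa13, also known as GRIM-19) and 0.41 (Ndufv3) on the log2 scale, with adjusted p from 0.0173 to 0.046 in the edgeR test. Ndufa2, Ndufa3 and Ndufa13 share exon sequence with a gene on the opposite strand (Tmco6, Tfpt and Tssk6), and the library kits named in the labels do not mark strand, so reads of these pairs cannot be told apart.

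In complex III, Uqcr11, one of its smallest subunits, stood at 45.5 and 42.6 CPM in telencephalic and 46.7 and 40.2 in hindbrain whole tissue. Among sorted cells the values were 94.8 and 71.4 CPM in the telencephalic and 42.2 and 51.8 in the hindbrain plexus. Telencephalic sorted cells were highest in both libraries and the other 3 groups overlapped. The difference between the sorted groups was -0.82 ± 0.16 (SE), adjusted p = 0.00368. Uqcr10, another small subunit, stood at 81.9 and 87.5 CPM in telencephalic and 98.9 and 90.0 in hindbrain whole tissue. After sorting it stood at 141 and 109.7 CPM in the telencephalic and 78.9 and 99.6 in the hindbrain plexus, with sorted groups that did not overlap but lay close in the second brain, and a difference of -0.49 ± 0.15 (SE), adjusted p = 0.0404. The larger subunits of the complex did not share this direction: Uqcrc2 showed 0.24 ± 0.12 (SE), adjusted p = 0.195, Uqcrc1 0.12 ± 0.12 (SE), adjusted p = 0.583 and Cyc1 0.02 ± 0.13 (SE), adjusted p = 0.954.

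In complex V, Atp5e, the epsilon subunit of the F1 central stalk, stood at 68.6 and 72.0 CPM in telencephalic and 67.4 and 58.5 in hindbrain whole tissue. The sorted cells held 105 and 76.4 CPM in the telencephalic and 55.5 and 61.8 in the hindbrain plexus. The first telencephalic sorted library stood apart, and the sorted groups differed by -0.63 ± 0.15 (SE), adjusted p = 0.014. Atp5j2, subunit f of the membrane part, stood at 26.9 and 30.9 CPM in telencephalic and 29.1 and 26.8 in hindbrain whole tissue. Sorted epithelial cells had 65.1 and 51.1 CPM in the telencephalic and 33.2 and 43.4 in the hindbrain plexus. All 4 sorted libraries lay above all 4 whole-tissue libraries for this gene, and the telencephalic ones were highest. The difference was -0.60 ± 0.16 (SE), adjusted p = 0.0264. The catalytic subunits gave differences above 0: Atp5b stood at 2029 and 1582 CPM in telencephalic and 2481 and 1734 in hindbrain whole tissue. In the sorted samples it stood at 1488 and 1608 CPM in the telencephalic and 1992 and 2075 in the hindbrain plexus, with an adjusted p of 0.129 and a positive log2 fold change of 0.39, and Atp5a1 showed 0.07 ± 0.12 (SE), adjusted p = 0.764.

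**Figure D3:**
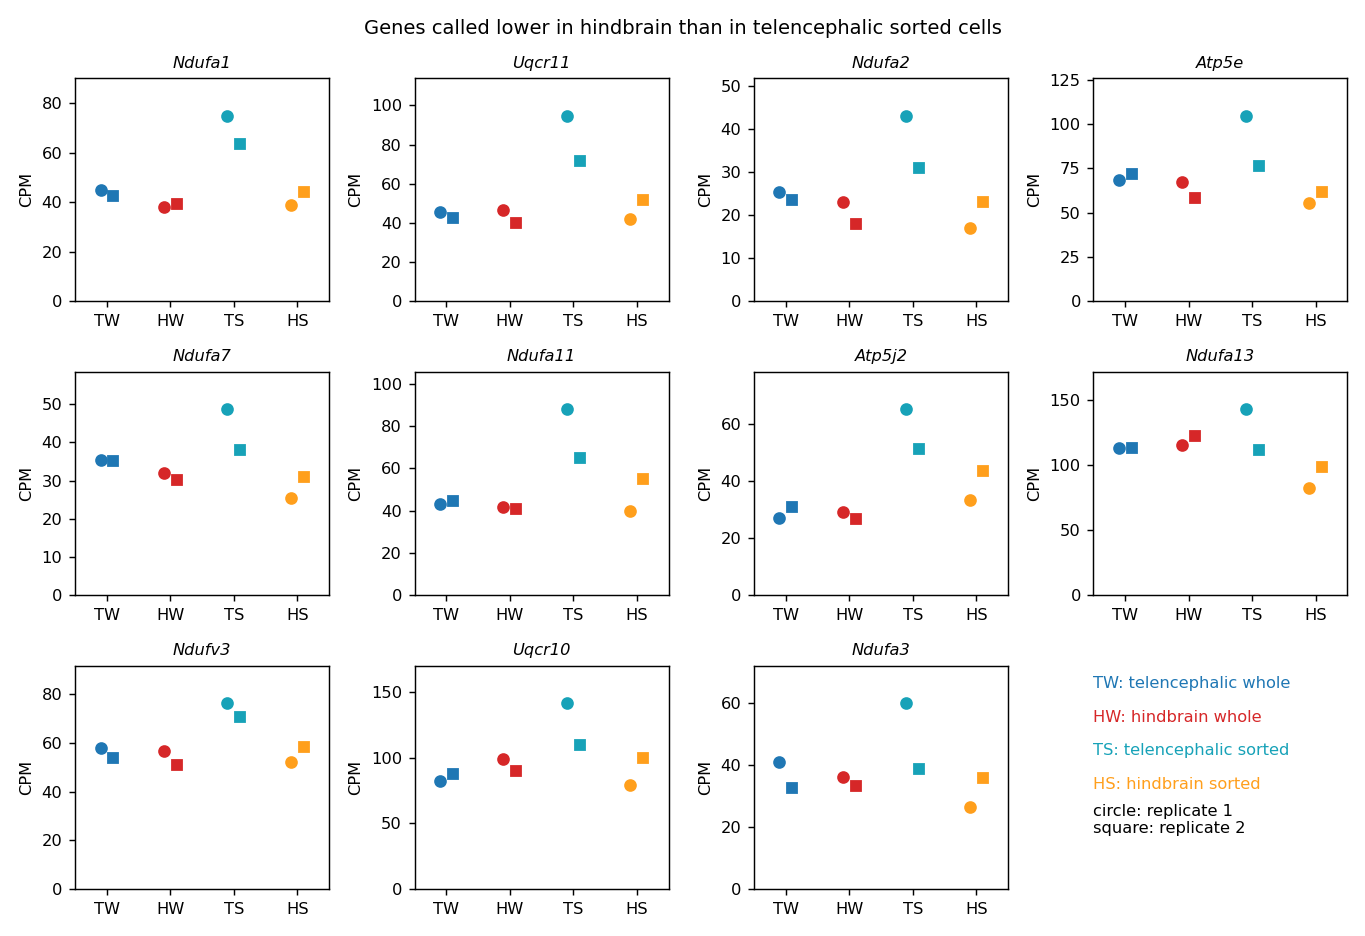
Level (CPM, axes from 0) in each library of the 11 genes called lower in hindbrain than in telencephalic sorted cells, in order of adjusted p; circles are replicate 1 and squares replicate 2. In each of the 11 genes the 2 telencephalic sorted libraries lie above the 2 hindbrain sorted libraries, and the gap is wider for replicate 1.

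The difference between the sorted groups was larger in 1 of the 2 brains. In the first brain 71 of 82 genes were lower in the hindbrain library, with a median log2 ratio of -0.47. In the second brain 36 of 82 were lower, with a median of 0.02 (CPM plus 1). For the 11 called genes the log2 ratio ran from -1.28 to -0.54 in the first brain and from -0.52 to -0.11 in the second, larger in size in the first for 11 of 11. Genes lower in both brains were 35 of 82, or 42.7%, against 32.2% of all genes tested. Within the groups, 70 of 82 genes were higher in the second than in the first hindbrain sorted library (median log2 ratio 0.27), and 68 of 82 were higher in the first than in the second telencephalic one. Rn45s moved in the same order in hindbrain sorted cells (63015 and 121314 CPM) and in telencephalic sorted cells (166640.0 and 133958). The 85 tested genes of the cytosolic ribosome did so too, with a median log2 ratio of the second over the first library of 0.34 in hindbrain and -0.21 in telencephalic sorted cells. The part of both in the result was not tested. Without the first hindbrain sorted library 2 genes were called lower (Ndufa1 and Uqcr11) and 1 higher (Cox4i2), and without the first telencephalic sorted library Ndufa1 alone. Without the second hindbrain sorted library 34 were called lower. With the brain as a replicate block the edgeR test called 15 lower, all 11 among them, and 2 higher (Ndufa4l2 and Atp5b). When raw library totals replaced TMM scaling, 4 were called lower and 4 higher, and the median of the 82 moved to -0.0041 while that of all genes moved to 0.20. The share of all genes called under these changed fits is not given here. The counts alone therefore do not set the 82 genes apart from other genes. The whole marker sums of macrophages, mural cells, mesenchyme and endothelium given above were also higher in hindbrain sorted cells, in both libraries, and their part in the result was not tested.

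The genes called lower were short. Their median transcript length was 528 bases (419 to 1251), against 865 for the 71 tested genes that were not called and 2842 for all genes tested. In 23 genes under 600 bases the median log2 fold change between the sorted groups was -0.38 and 8 were called. It was -0.20 in 27 genes of 600 to below 1000 bases, -0.09 in 24 genes of 1000 to below 2000 bases and 0.12 in 8 genes of 2000 bases or more. Over all genes tested the same bins gave -0.21, -0.19, -0.06 and 0.03. Across the 82 genes, Pearson's r between length and log2 fold change was 0.44 and Spearman's rho 0.58, against 0.07 and 0.14 across all genes with a length. The genes share libraries and scaling, so these values are a description. In whole tissue the same correlation across the 82 genes was 0.39 (Pearson) and 0.46 (Spearman), with a bin median of -0.09 under 600 bases and 0.21 at 2000 bases or more.

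**Figure D4:**
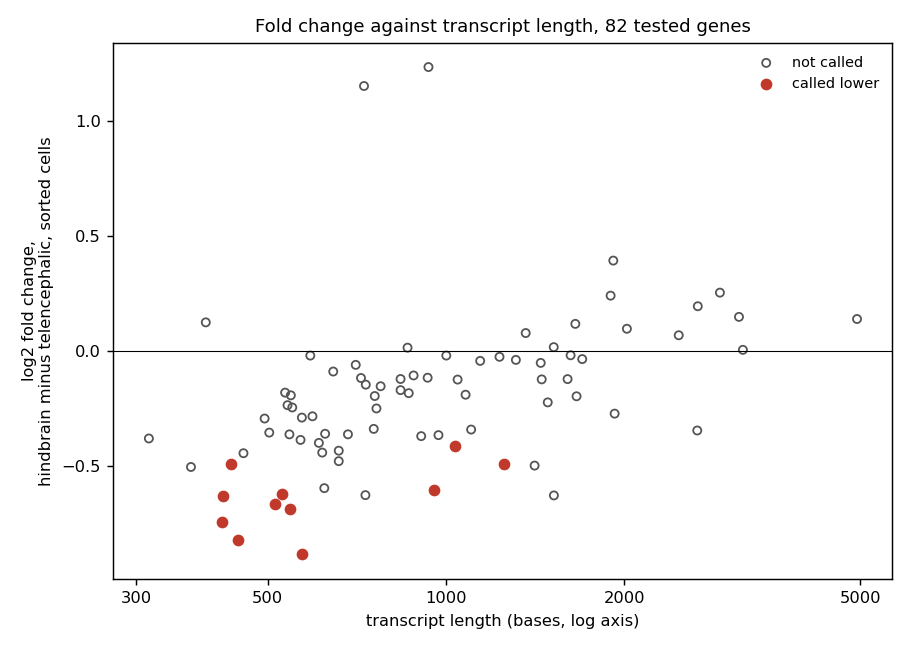
Fitted log2 fold change between hindbrain and telencephalic sorted cells against transcript length (log axis) for the 82 tested genes, with genes called lower in red. The called genes lie between 419 and 1251 bases, and the 8 genes of 2000 bases or more have a median of 0.12.

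Whether the region effect differed between sorted cells and whole tissue was tested as the interaction of region and preparation. Of the 82 genes 0 were called by edgeR, against 1.34% of all genes. At an unadjusted p below 0.05 there were 11, against 9.43% of all genes, and DESeq2 called Uqcr11 alone. The interaction was negative for 73 of 82 genes, with a median of -0.28 against 0.00 over all genes, and Uqcr11 had the lowest value, -0.80 ± 0.23 (SE), adjusted p = 0.155. The lower level in hindbrain sorted cells was therefore not shown by edgeR to differ from the region effect in whole tissue for any of the 82 genes.

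Relative to the TMM scale, sorted telencephalic cells had higher levels of many of these genes than telencephalic whole tissue. As a share of raw counts, the 87 genes took 0.828% and 0.777% in telencephalic sorted cells and 0.869% and 0.825% in whole tissue. By that measure the groups overlapped, with the lowest value in sorted and the highest in whole tissue, so the direction of the summed level rests on the scaling. The distance between the median of the 82 genes and that of all genes did not, as given below for raw library totals. Of the 82 genes, 28 rose and 1 fell; the 28 are 34.1%, while 9.88% of all genes were called higher, 12.5% lower and 22.4% in either direction. The median log2 fold change was 0.38 against 0.01 over all genes tested, and in 58 of 82 genes (70.7%) both sorted libraries lay above both whole-tissue libraries, as in 33.7% of all genes. By complex, 6 of 34 tested genes rose in complex I, 2 of 4 in complex II, 5 of 9 in complex III, 6 of 16 in complex IV and 7 of 15 in complex V, besides Cycs and Atp5sl. Markers of other cell types moved in the same comparison: 10 of 10 endothelial markers (median log2 fold change -4.31), 8 of 9 mural (-2.67), 8 of 10 macrophage (-1.81) and 8 of 10 mesenchymal markers (-1.19) were lower in sorted cells. Of 12 choroid epithelial markers 7 were higher and 0 lower, with a median of 0.36. The part of these shifts in the result was not tested. Within ATP synthase, 5 of 7 genes of the stator stalk and membrane part rose and 2 of 3 genes of the c ring, while 0 of 5 genes of the F1 head were called, 1 of them at an unadjusted p below 0.05. This comparison shares the telencephalic sorted libraries with the one between sorted groups, so the calls of the 2 comparisons are not independent.

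Atp5g1, a gene for the proton-carrying c subunit, rose most, from 221 and 208 CPM in telencephalic whole tissue to 472 and 423 in sorted cells, with a log2 fold change of 1.06 ± 0.19 (SE), adjusted p = 0.00172. In the hindbrain it stood at 291 and 249 in whole tissue and 266 and 438 in sorted cells, where the first library overlapped with whole tissue (0.38 ± 0.18 (SE), adjusted p = 0.159). Atp5j2 differed by 1.01 ± 0.17 (SE), adjusted p = 0.00123. Atp5j, coupling factor 6 of the stator stalk, stood at 139.6 and 152 CPM in telencephalic and 159 and 151 in hindbrain whole tissue. Levels after sorting were 242 and 228 CPM in the telencephalic and 179 and 243 in the hindbrain plexus, and all 4 sorted libraries lay above all 4 whole-tissue libraries. It rose in both regions, by 0.69 ± 0.14 in the telencephalic and 0.44 ± 0.14 in the hindbrain plexus (adjusted p = 0.00409 and 0.0371 in the edgeR test). The hindbrain call for Atp5j was kept in 5 of 15 alternatives, and its difference ran from 0.21 to 0.65 with 1 library left out (adjusted p up to 0.247, edgeR), lowest without the second hindbrain sorted library. Atp5j shares exon sequence with Gabpa on the opposite strand.

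In complex III, Uqcrq, a small membrane subunit, stood at 32.0 and 30.2 CPM in telencephalic and 38.4 and 27.4 in hindbrain whole tissue. Among sorted cells the values were 73.8 and 53.0 CPM in the telencephalic and 34.3 and 47.9 in the hindbrain plexus, with a telencephalic difference of 1.03 ± 0.21 (SE), adjusted p = 0.0044. Uqcr11 differed by 0.92 ± 0.16 (SE), adjusted p = 0.0017 and Uqcrh, the hinge protein that contacts cytochrome c1, by 0.61 ± 0.15 (SE), adjusted p = 0.0131. Cox6c, an accessory subunit of complex IV, stood at 64.9 and 65.3 CPM in telencephalic and 62.7 and 60.0 in hindbrain whole tissue. After sorting it stood at 127 and 95.5 CPM in the telencephalic and 93.2 and 80.9 in the hindbrain plexus. All 4 sorted libraries lay above all 4 whole-tissue libraries, and it rose in both regions (0.77 ± 0.14 and 0.50 ± 0.14, adjusted p = 0.00237 and 0.023 in the edgeR test). Cox8a stood at 159.5 and 178 CPM in telencephalic whole tissue and 258 and 246 in sorted cells, a difference of 0.58 ± 0.12 (SE), adjusted p = 0.00542. Cycs rose by 0.57 ± 0.11 (adjusted p = 0.0035 in the edgeR test).

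In complex I, Ndufa1 and Ndufa11 differed by 0.66 ± 0.13 and 0.80 ± 0.18 between sorted and whole telencephalic plexus (adjusted p = 0.00373 and 0.00645 in the edgeR test). Ndufs3, a core subunit of the peripheral arm and the 1 core gene called, stood at 32.2 and 31.1 CPM in telencephalic and 34.6 and 31.9 in hindbrain whole tissue. The sorted cells held 50.8 and 44.0 CPM in the telencephalic and 46.5 and 40.5 in the hindbrain plexus, with a difference of 0.58 ± 0.14 (SE), adjusted p = 0.00987; it shares exon sequence with Kbtbd4. In complex II, Sdhb and Sdhc, the iron-sulfur subunit and a membrane anchor of succinate dehydrogenase, rose by 0.42 and 0.43 on the log2 scale (adjusted p = 0.0434 and 0.0446, edgeR), while the flavoprotein Sdha, with an adjusted p of 0.757, differed by -0.06. The 1 gene that fell, Ndufa4l2, a paralogue of the complex IV subunit Ndufa4 known as a hypoxia-induced gene, stood at 6.05 and 4.92 CPM in telencephalic and 8.79 and 3.82 in hindbrain whole tissue. Sorted epithelial cells had 1.10 and 1.55 CPM in the telencephalic and 2.62 and 3.52 in the hindbrain plexus. The telencephalic sorted cells were lowest in both libraries, and the difference was -2.08 ± 0.43 (SE), adjusted p = 0.00438; it shares exon sequence with Shmt2 on the opposite strand. Marker sums of other cell types also fell from telencephalic whole tissue to telencephalic sorted cells. Mural markers went from 401 and 421 to 76.2 and 68.5 CPM, and endothelial markers from 752 and 762 to 130 and 135. Macrophage markers went from 141 and 164 to 35.8 and 58.0 CPM, and mesenchymal markers from 1250 and 1493 to 897 and 939. The part of these markers in the result was not tested.

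The calls of this comparison depended on the scale and on the libraries used, and the share of all genes called under each changed fit is not given here. Under raw library totals, which include Rn45s and Ttr, 6 genes were called higher in telencephalic sorted cells (Atp5g1, Atp5j2, Cox6c, Ndufa11, Uqcr11 and Uqcrq) and 9 lower, among them Atp5b and Atp5a1. The median of the 82 genes was then 0.06 and that of all genes -0.30, so the distance between them was 0.36, as under TMM. Leaving out 1 library at a time gave 6 to 44 calls, the fewest without the first telencephalic sorted library, when 6 genes were called higher, and 9 higher without the first and 8 without the second telencephalic whole-tissue library.

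**Figure D5:**
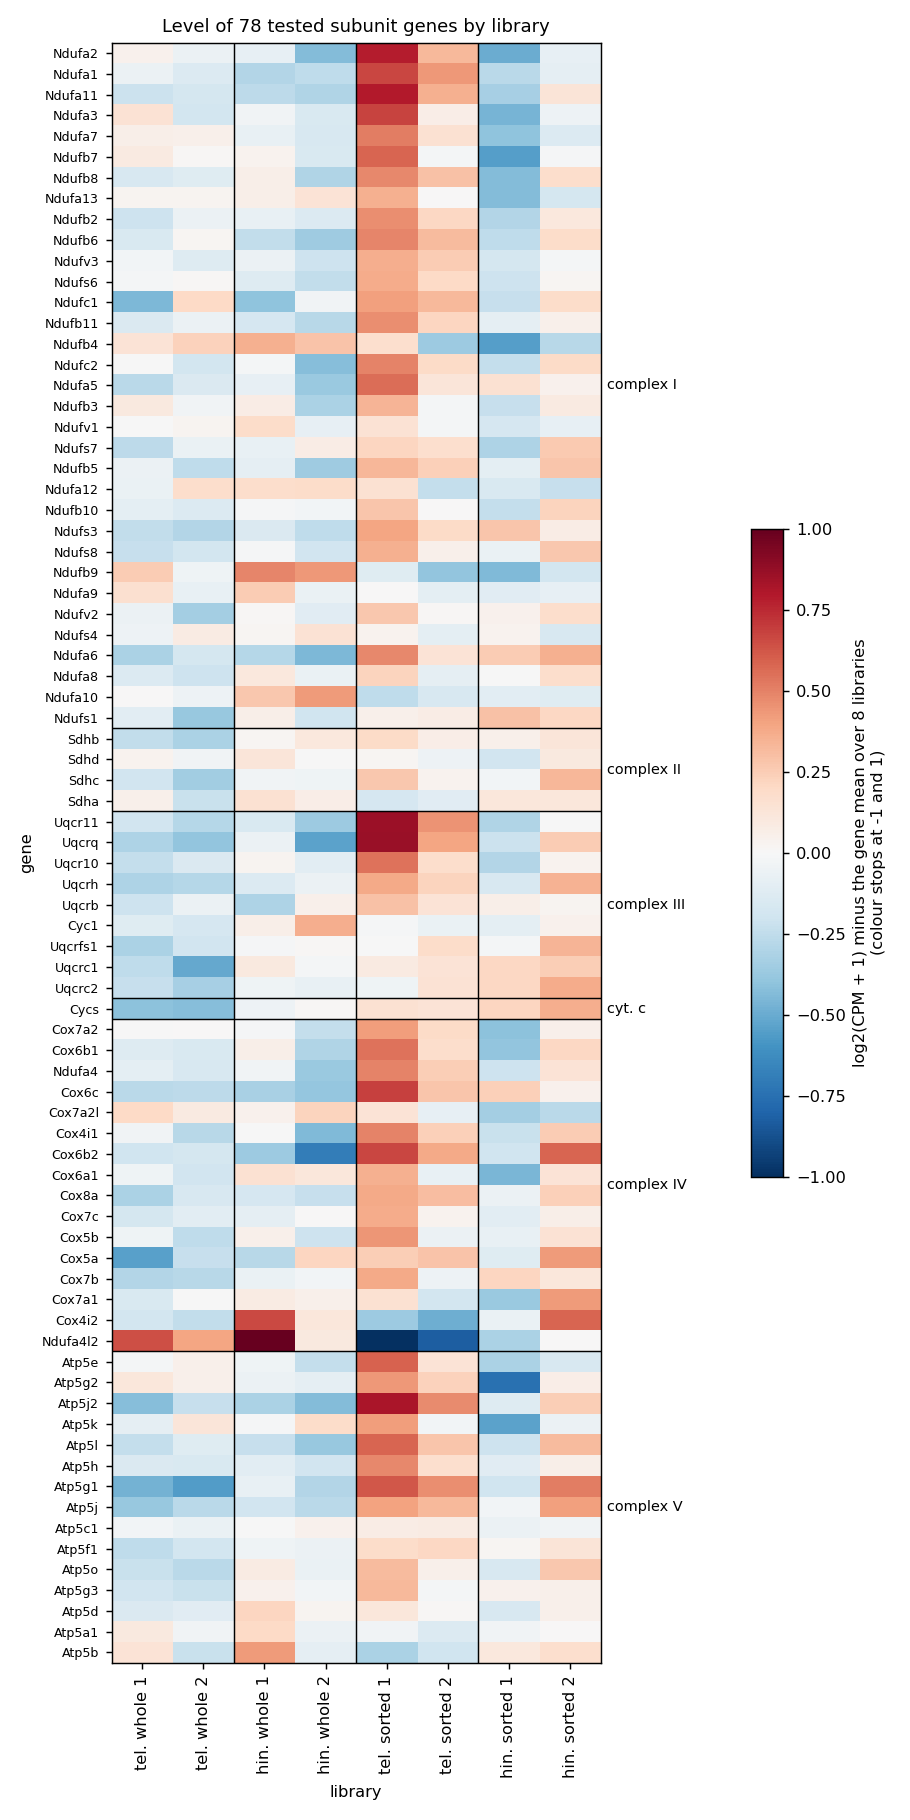
Level of 78 tested subunit genes in the 8 libraries, as log2(CPM + 1) minus the gene's mean over the libraries, by complex and, within a complex, in order of the log2 fold change between the sorted groups. The first telencephalic sorted library is above the mean for most genes and the first hindbrain sorted library below it, while Ndufa4l2 and Cox4i2 follow another order.

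In the hindbrain plexus, sorted cells differed from whole tissue in both directions: 5 genes rose (Ndufa6, Cox6c, Cox6b2, Atp5j and Uqcrc2) and 4 fell (Ndufb9, Ndufa10, Ndufb4 and Cox7a2l). They are 6.10% and 4.88% of the 82, against 10.2% and 11.9% of all genes, and 9 in either direction, where 22.1% of all genes were called. The median was 0.05 against 0.01 over all genes, and turned to -0.15 under raw library totals, where that of all genes was -0.19. Ndufb9, an accessory subunit of complex I, stood at 72.5 and 58.7 CPM in telencephalic and 85.2 and 82.2 in hindbrain whole tissue. In the sorted samples it stood at 55.7 and 45.9 CPM in the telencephalic and 44.4 and 53.2 in the hindbrain plexus. The 4 whole-tissue libraries lay above the 4 sorted ones, and the hindbrain difference was -0.78 ± 0.15 (SE), adjusted p = 0.00281. Ndufa10 stood at 82.0 and 91.2 CPM in hindbrain whole tissue and 62.8 and 62.2 in sorted cells (-0.47 ± 0.11 (SE), adjusted p = 0.0116), and Ndufb4 at 25.2 and 24.0 CPM against 13.0 and 15.9 (-0.77 ± 0.19 (SE), adjusted p = 0.0131). Cox7a2l, which joins complexes III and IV into supercomplexes, fell by 0.45 on the log2 scale (adjusted p = 0.0238, edgeR). Ndufa6, a complex I subunit of the LYR protein family, stood at 14.4 and 16.0 CPM in telencephalic and 14.8 and 13.0 in hindbrain whole tissue. Levels after sorting were 25.7 and 20.1 CPM in the telencephalic and 21.9 and 23.5 in the hindbrain plexus. It rose in both regions, by 0.60 and 0.71 (adjusted p = 0.0271 and 0.0109, edgeR). Uqcrc2, a core protein of complex III that shares exon sequence with Pdzd9, rose by 0.35 ± 0.12 (adjusted p = 0.0465 in the edgeR test). Under the 15 alternatives the hindbrain call was kept in 15 for Ndufb9, in 14 each for Ndufa6, Ndufa10 and Ndufb4, in 12 for Cox7a2l, in 11 each for Cox6c and Cox6b2, in 5 for Atp5j and in 3 for Uqcrc2.

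Tissue-specific isoforms of complex IV and ATP synthase were compared within their sets as shares of counts, with exact binomial 95% intervals that cover counting error only; transcript lengths within a set differ, so a share of counts is not a share of molecules. The heart and muscle isoforms Cox6a2 and Cox8b made at most 0.208% and 0.118% of their sets in any library. Cox7a1 made 0.914% to 1.99% of a set that also holds Cox7a2 and Cox7a2l. Cox7a2l made 46.3% to 60.0% of that set, so the share of Cox7a1 beside Cox7a2 alone was larger. Cox7b2, the testis isoform of subunit 7B, made at most 0.0307%. Cox4i2, the lung isoform of subunit 4, made 0.461% to 1.88% of the Cox4 counts. It was 0.83% and 0.91% in telencephalic and 1.88% and 1.52% in hindbrain whole tissue. It was 0.46% and 0.47% in telencephalic and 1.08% and 1.47% in hindbrain sorted cells, so both hindbrain libraries lay above both telencephalic ones in each preparation. Its level gave a difference of 0.94 ± 0.46 (SE), adjusted p = 0.344 in whole tissue and of 1.15 ± 0.45 (SE), adjusted p = 0.11 in sorted cells in the edgeR test, neither of them called.

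Cox6b2, described as the testis isoform of subunit 6B, was an exception among the alternative isoforms. It made 31.3% (28.7 to 34.1) and 32.1% (28.6 to 35.7) of the Cox6b counts in telencephalic whole tissue, and 26.2% (24.2 to 28.2) and 26.5% (24.1 to 29.0) in hindbrain whole tissue. In sorted cells the share was 34.6% (33.0 to 36.3) and 35.7% (33.3 to 38.1) in the telencephalic plexus, and 35.6% (33.4 to 37.8) and 38.6% (36.8 to 40.4) in the hindbrain plexus. The 4 sorted libraries lay above the 4 whole-tissue libraries. Its level was 23.1 and 23.5 CPM in telencephalic and 20.5 and 16.1 in hindbrain whole tissue. Among sorted cells the values were 42.9 and 34.9 CPM in the telencephalic and 23.2 and 40.5 in the hindbrain plexus. Cox6b2 rose in sorted against whole plexus by 0.74 ± 0.23 in the telencephalic and 0.79 ± 0.23 in the hindbrain plexus (adjusted p = 0.0369 and 0.0264 in the edgeR test). The hindbrain difference ran from 0.34 to 1.14 with 1 library left out, and the call was lost without the second hindbrain sorted or the second hindbrain whole-tissue library (adjusted p up to 0.215 over the alternatives, edgeR). In CPM the first hindbrain sorted library was level with the telencephalic whole-tissue libraries.

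Among the 3 genes for the c subunit of ATP synthase, which encode 1 mature protein with different import sequences, Atp5g1 made 46.4% and 45.7% of counts in telencephalic and 51.4% and 48.6% in hindbrain whole tissue. It made 57.5% and 59.8% in telencephalic and 52.0% and 60.7% in hindbrain sorted cells. Its share was higher in all 4 sorted than in all 4 whole-tissue libraries. Atp5g3 made 27.0% to 38.9% and Atp5g2 9.11% to 18.0%.

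Of the regulators themselves, 18 genes of a list chosen for this comparison were tested. In each region comparison 1 of the 18 was called higher (5.56%). Of all genes, 3.34% were higher in whole tissue and 9.06% in sorted cells. In sorted cells 1 was called lower (5.56%, against 6.12% of all genes). Esrrg, an oestrogen-related receptor that activates genes of oxidative metabolism, was the 1 that rose in the hindbrain in both preparations. It stood at 40.0 and 35.4 CPM in telencephalic and 134 and 159 in hindbrain whole tissue. After sorting it stood at 33.8 and 39.2 CPM in the telencephalic and 153 and 145 in the hindbrain plexus. The hindbrain libraries were all above the telencephalic ones, with differences of 1.96 ± 0.14 (SE), adjusted p = 4.4e-06 in whole tissue and 2.03 ± 0.13 (SE), adjusted p = 1.82e-06 in sorted cells. Ppargc1b, a coactivator of these receptors, fell in hindbrain sorted cells (-0.90 ± 0.23 (SE), adjusted p = 0.0221), from 14.6 and 10.2 to 5.64 and 7.74 CPM. Ppargc1a showed 0.30 ± 0.13 (SE), adjusted p = 0.156, Nrf1 0.11 ± 0.16 (SE), adjusted p = 0.718 and Gabpa 0.25 ± 0.12 (SE), adjusted p = 0.192 in the same comparison. Polg2, the accessory subunit of the mitochondrial DNA polymerase, rose in sorted against whole plexus of both regions, by 1.16 and 1.77 (adjusted p = 0.00709 and 0.00039, edgeR). It was the 1 of the 18 called in each (5.56%), where 9.88% and 10.2% of all genes rose.

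Of 16 genes of pyruvate dehydrogenase and the citric acid cycle, 2 were called higher in the hindbrain in whole tissue, 3 in sorted cells, and 0 lower in either; 3.34% and 9.06% of all genes were called higher. Pdha1, the E1 alpha subunit of pyruvate dehydrogenase, stood at 27.0 and 28.1 CPM in telencephalic and 43.3 and 40.6 in hindbrain whole tissue. The sorted cells held 28.9 and 34.2 CPM in the telencephalic and 51.3 and 50.4 in the hindbrain plexus, both hindbrain groups above both telencephalic ones, with differences of 0.61 ± 0.13 (SE), adjusted p = 0.0175 and 0.69 ± 0.13 (SE), adjusted p = 0.00339. Dld, the shared E3 subunit, differed by 0.43 and 0.47 (adjusted p = 0.034 and 0.0107, edgeR). The list's median was 0.22 in whole tissue and 0.16 in sorted cells, where that of the 82 oxidative phosphorylation genes was 0.07 and -0.20. Of 19 genes of a glycolysis list, 2 were called higher in the hindbrain and 0 lower in whole tissue. In sorted cells 2 were called higher and 3 lower, where 9.06% and 6.12% of all genes were. Ldhb, the lactate dehydrogenase subunit of oxidative tissues, rose in the hindbrain in whole tissue (0.89 ± 0.11 (SE), adjusted p = 0.000414) and in sorted cells (0.55 ± 0.11 (SE), adjusted p = 0.00551). Ldha, another lactate dehydrogenase subunit, also rose in hindbrain whole tissue (0.67 ± 0.15 (SE), adjusted p = 0.0162, edgeR). The glucose transporter Slc2a1 and the monocarboxylate transporter Slc16a1 fell in hindbrain sorted cells, by 0.65 and 0.85 on the log2 scale. Of 42 tested assembly factors 0 rose and 2 fell between the sorted groups (Ndufaf2 and Ccdc56, a complex IV factor now named Coa3), which is 4.76% where 6.12% of all genes were lower. In sorted against whole plexus 5 rose and 0 fell in the telencephalic plexus, and 5 rose and 2 fell in the hindbrain plexus, so 11.9% rose in each where 9.88% and 10.2% of all genes did. Of 11 carriers and channels, 0 were called between the sorted groups by edgeR, with 1 at an unadjusted p below 0.05. Vdac2, an outer membrane channel, rose in sorted against whole plexus of both regions (0.83 and 0.70, adjusted p = 0.000218 and 0.000795). It was the 1 carrier or channel that rose in either, and 3 fell in hindbrain sorted against whole plexus: the uncoupling protein Ucp2 (-0.55), the channel Vdac1 (-0.48) and the adenine nucleotide carrier Slc25a4 (-0.40), with adjusted p of 0.00871, 0.0146 and 0.0356 in the edgeR test. The 3 are 27.3% of the 11, where 11.9% of all genes fell.

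Between the sorted groups and in telencephalic sorted against whole plexus, the ribosomal lists gave medians on the same side of 0 as the 82 genes. Their shares of called genes between the sorted groups were smaller. For region in whole tissue the medians were -0.07 (cytosolic ribosome) and 0.005 (mitochondrial ribosome), against 0.07 for the 82 genes. In the comparison of sorted groups the cytosolic ribosome had a median of -0.26, with 3 of 85 genes lower and 0 higher, and the mitochondrial ribosome -0.17, with 3 of 76 lower and 0 higher. These are 3.53% and 3.95%, below the 6.12% of all genes called lower. In telencephalic sorted against whole plexus their medians were 0.28, with 23 higher (27.1%) and 4 lower, and 0.24, with 5 higher (6.58%) and 0 lower, where 9.88% of all genes were higher. Of 3 subunits outside the symbol rule, the small subunit gene 2010107E04Rik fell in hindbrain sorted cells (-0.67 ± 0.19 (SE), adjusted p = 0.0343) and rose in telencephalic sorted against whole plexus (0.64 ± 0.20 (SE), adjusted p = 0.034). Usmg5, an ATP synthase membrane subunit, fell in sorted against whole plexus of both regions (-0.70 and -0.78, adjusted p = 0.0054 and 0.00295, edgeR). Ndufab1, the mitochondrial acyl carrier protein, was called in neither. Of 12 genes of the immediate early and heat shock response, which dissociation is known to induce, 8 rose in telencephalic and 9 in hindbrain sorted against whole plexus. Between the sorted groups 9 were higher in the hindbrain, where 9.06% of all genes were. Of 12 hypoxia response genes, 3 rose and 4 fell in telencephalic sorted against whole plexus and 2 rose and 4 fell in the hindbrain. Of all genes, 9.88% rose and 12.5% fell in the telencephalic comparison, and 10.2% rose and 11.9% fell in the hindbrain one. The part of these responses in the levels of the 82 genes was not tested.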

How the data were processed

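The authors deposited 1 table of raw counts per gene for 8 libraries. Per the labels' protocols, total RNA was pre-amplified with a NuGEN Ovation kit before paired-end TruSeq library preparation. TopHat2 2.0.4, Bowtie2 2.0.5, HTSeq, CASAVA 1.8.2 and DESeq are listed in the submitters' processing notes, with mm9 as the build. No source used here gives the annotation, counting mode or strand setting. Short subunit genes have processed pseudogenes, and 24 of the 87 genes share exon sequence with another gene, so their counts are uncertain.

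Counts were fitted in edgeR 4.0.16 (R 4.3.3): filterByExpr (minimum count 10, minimum total 15), TMM factors, 4 group means over all 8 libraries, quasi-likelihood tests and Benjamini-Hochberg adjustment over 15698 genes, called at an adjusted p below 0.05. DESeq2 1.42.0 was an alternative. The others were other scalings, no filter, the brain as a block, only the libraries compared, and leaving out each library. The procedure was also run on simulated counts with known changes in single genes of the hindbrain sorted group. The simulation held no pairing by brain and no shift shared by many genes of a library, so it does not bear on these. The design text pairs regions by brain, and over all genes tested same-brain libraries deviated together weakly (r = 0.30 in whole tissue and 0.15 in sorted cells, across 15698 genes). For the 82 genes only medians are given, which do not show whether single genes deviated together. Their median log2 ratio of the second over the first library was -0.23 in telencephalic and 0.27 in hindbrain sorted cells. In sorted cells these medians therefore lay on opposite sides of 0. P-values rest on 2 samples a group, with 1 estimate of the spread for each gene shared by all 4 groups. The main fit did not use the pairing by brain. Lengths are medians of RefSeq-linked transcripts from GENCODE M21, another build than mm9, used for lengths only.

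Genes were named by rule: in each comparison and direction, the 3 called genes of each complex with the lowest adjusted p, at most 12, plus the 2 highest genes of each complex, the isoform sets and genes with odd symbols; others named were chosen after their values were seen. The members and lists were chosen with earlier results of these data known. 1 gene is counted in the totals and not reported here by name.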

Additional observations from a re-analysis of the deposited data

How the results depend on the processing

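Of 49 calls of single genes, the 29 named by rule, which have the lowest adjusted p in their complexes, were followed. In 442 checks of these 29 under the alternatives, 363 kept direction and call, 79 kept direction without the call and 0 reversed; 6 calls held throughout. Raw library totals moved the median of all genes by 0.09 (region, whole tissue), 0.20 (region, sorted cells), 0.12 (interaction), -0.30 and -0.19 (sorted against whole, telencephalic and hindbrain), and the medians of the 82 genes to 0.15, -0.0041, -0.16, 0.057 and -0.15. Calls for region in whole tissue numbered 2 under library totals, with the replicate block (the paired fit by brain) and in DESeq2, and 1 under totals without Rn45s and Ttr or with only those libraries (0 to 1 with 1 library left out). For region in sorted cells there were 21 without a filter, 17 with the replicate block and 6 with only those libraries (1 to 34 with 1 library left out; median -0.39 to -0.11); the block left the interaction count at 0 and was not run for sorted against whole plexus, which come from different brains. The interaction gave 1 call without a filter and 1 in DESeq2 (0 to 5; median -0.43 to -0.19). For telencephalic sorted against whole plexus there were 15 under library totals and 49 with only those libraries (6 to 44; median 0.29 to 0.49), and for hindbrain 5 with only those libraries (3 to 17; median -0.049 to 0.21). With 1 library left out, the lone sample is taken to vary like the other groups. The share of all genes called under each alternative is not given, so these counts do not set the 82 genes apart from other genes. Genes of few counts, such as Cox4i2 and Ndufa4l2, are limited by depth. No cause of these changes was tested.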
